A study of Mus musculus with 2 samples.

Results

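A set of 10 genes used to mark macrophages was described in CFU-E cells (colony-forming units erythroid), committed red cell progenitors whose survival normally depends on erythropoietin. Members were taken by symbol, as the genes Lyz2, Lyz1, Csf1r, Fcgr3, Adgre1, C1qa, C1qb, Mrc1, Cd5l and Cd68, from probe sets annotated to exactly 1 gene. All 10 were measured, each by 1 probe set, among 17874 genes in all. The series held 2 Affymetrix mouse arrays, 1 of cells cultured for 3 h in a Panserin medium and 1 of cells lysed at the start (0 h). Both groups were EpoR-/- (erythropoietin receptor null) CFU-E cells from BALB/c fetal livers at gestational day 13.5, per the protocols, and both had first been deprived of growth factors for 1 h. The cells were obtained by lysing red cells and removing cells that carry GR1, CD41, CD11b, CD14, CD45, lymphoid antigens or TER-119 with antibodies, from pools of 40 to 50 livers, and the labels do not say how pure they were. The genotype label names Epo where the protocol names its receptor, the treatment label at 3 h names supplemental growth factors where the protocol says that none were added, and the strain label is on the 0 h sample only. No wild-type array was analysed here, so the only comparison is 3 h against 0 h within this genotype. With 1 array at each time there is no replicate, no error and no test for any difference below, and culture time cannot be told apart from differences between the 2 preparations.

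Macrophages of the fetal liver sit at the centre of erythroblastic islands, where they hold maturing erythroblasts and engulf the nuclei that these expel. They depend on signalling through the CSF1 receptor, clear opsonised particles through Fc receptors and complement, and take up debris through scavenger and mannose receptors. Several of their genes are not particular to them: lysozyme, the CSF1 receptor and Fc receptors are also expressed by monocytes, and lysozyme and Fc receptors by granulocytes, whereas C1q, Cd5l, the mannose receptor and F4/80 are used to tell tissue macrophages from other myeloid cells.

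The 10 genes divided into a group of 4 that were clearly measured and higher at 3 h and a group of 6 with low signals on both arrays. Values are log2 expression, and a gene was counted where its higher value was at least 5.70, the median over all gene values and here called the floor. Lyz1, Lyz2, Csf1r and Fcgr3 were above the floor on both arrays, and all 4 were at least 1.5-fold higher at 3 h, as were 6.94% of the 9284 genes at or above the floor. Of these, 2 (Lyz1 and Lyz2) were at least 2-fold higher, against 2.00% of genes at or above the floor. None of the 10 was 1.5-fold lower, against 4.80% of genes at or above the floor, or 2-fold lower, against 0.872%. All 4 genes above the floor were higher at 3 h, as were 51.5% of genes there, and 7 of the 10 were, against 50.2% of all genes. Adgre1, C1qa, C1qb, Mrc1, Cd5l and Cd68 were below the floor on both arrays. So were 8590 of all 17874 genes, because the floor is a median. The median difference (3 h minus 0 h) was 0.16 over all 10 genes and 1.41 over the 4 above the floor, beside 0.00090 over all genes and 0.0094 over those at or above the floor. At this floor the 10 genes therefore showed no signal particular to tissue macrophages. The 4 genes above it are shared with other myeloid cells, and the markers that set tissue macrophages apart were below it. With 1 probe set a gene, a low value may also come from a weak probe set.

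**Figure D1:**
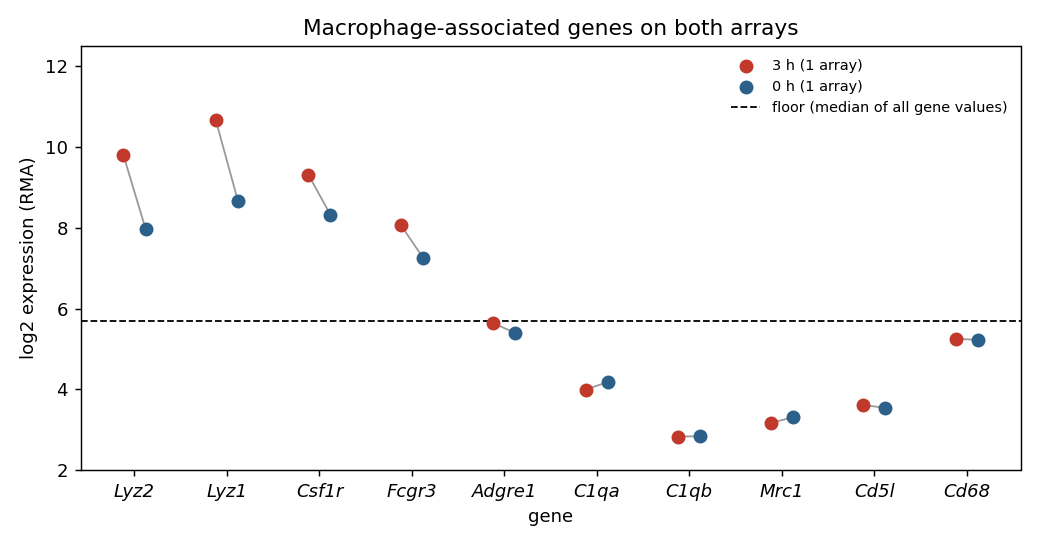
Log2 expression of the 10 genes, with 1 point for the array at 3 h and 1 for the array at 0 h, joined by a line. The dashed line is the floor of 5.70. Lyz2, Lyz1, Csf1r and Fcgr3 lie above it on both arrays and are higher at 3 h, and the other 6 genes lie below it on both.

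Lysozyme genes differed the most among the 10. Lyz1, which encodes the P-type lysozyme known from the Paneth cells of the mouse intestine, had a log2 value of 10.66 at 3 h and 8.66 at 0 h, a difference of 2.00 or 4.01-fold. Lyz2, which encodes the M-type lysozyme of myeloid cells, had 9.80 at 3 h and 7.98 at 0 h, a difference of 1.83 or 3.55-fold. Both enzymes cut the peptidoglycan of bacterial cell walls. Among the 9284 genes at or above the floor, Lyz1 ranked 31st and Lyz2 39th by the size of the increase. Lyz1 was measured by a probe set of a kind that can match several genes, and as a close paralog of Lyz2 it may carry signal from Lyz2. The probe sets therefore cannot be read as separate observations, and with both genes counted once the median difference of the set was 0.07.

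The likeness of the paralogs reaches into their promoters, which are shown to let a reader compare them. In the RefSeq table of GRCm38.p6, both genes lie on the minus strand of chromosome 10. Over the 250 bases before the start, 152 positions (60.8%) were identical without gaps, and the 50 bases next to the start were identical throughout, marked in capitals.
Lyz1, chr10:117292869-117293118, minus strand: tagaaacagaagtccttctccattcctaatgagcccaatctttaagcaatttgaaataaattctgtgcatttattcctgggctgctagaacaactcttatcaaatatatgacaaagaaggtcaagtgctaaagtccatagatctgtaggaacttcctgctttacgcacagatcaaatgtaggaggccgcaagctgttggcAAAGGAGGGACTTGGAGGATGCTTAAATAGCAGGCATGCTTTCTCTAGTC
Lyz2, chr10:117282273-117282522, minus strand: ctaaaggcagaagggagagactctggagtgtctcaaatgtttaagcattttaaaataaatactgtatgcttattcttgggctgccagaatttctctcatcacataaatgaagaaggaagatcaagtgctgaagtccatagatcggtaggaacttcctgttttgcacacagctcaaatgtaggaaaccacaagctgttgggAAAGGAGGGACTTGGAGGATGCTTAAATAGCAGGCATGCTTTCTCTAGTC

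Receptors came next. Csf1r, the receptor for the growth factors CSF1 and IL-34 on which macrophages depend, had 9.32 at 3 h and 8.32 at 0 h, a 1.996-fold increase that stood just under the 2-fold threshold. Fcgr3, a low-affinity receptor for IgG that triggers phagocytosis, had 8.07 at 3 h and 7.26 at 0 h, a difference of 0.80 or 1.74-fold. Csf1r ranked 189th and Fcgr3 323rd among the same 9284 genes. The robust SD of the differences, taken over genes at or above the floor, was 0.31, so that the increases of Fcgr3, Csf1r, Lyz2 and Lyz1 were 2.55, 3.17, 5.81 and 6.37 times that spread. That spread is over genes on these arrays and is no replicate error.

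**Figure D2:**
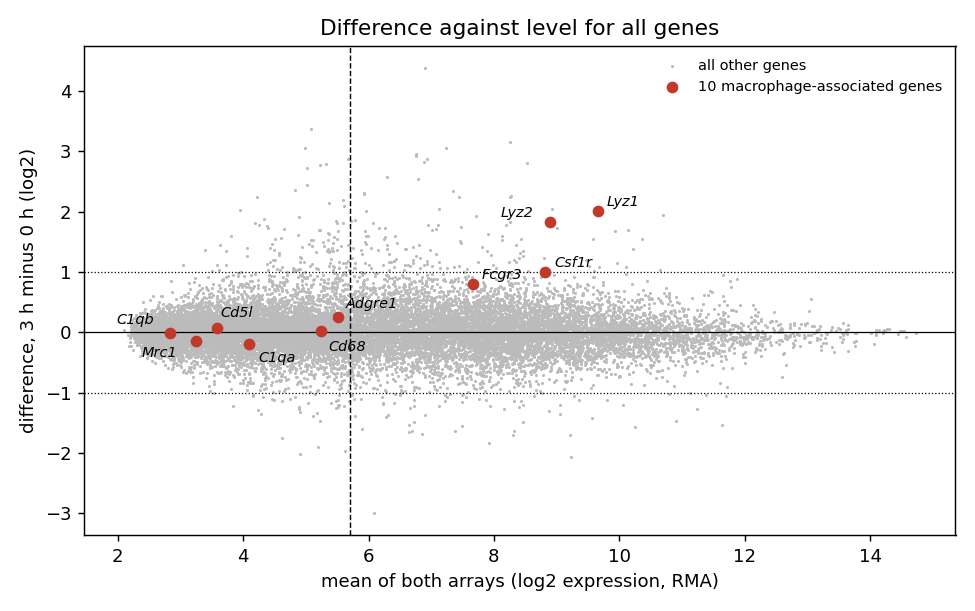
Difference between the arrays (3 h minus 0 h, log2) against the mean of both arrays (log2) for all 17874 genes, with the 10 macrophage-associated genes in red. Dotted lines mark 2-fold in each direction and the dashed line the floor of 5.70. Lyz1 and Lyz2 lie above the upper dotted line, Csf1r just under it and Fcgr3 below that, and the other 6 genes lie left of the dashed line, near 0.

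Markers that set tissue macrophages apart were below the floor. Adgre1, which encodes the F4/80 antigen, came closest, with 5.64 at 3 h and 5.39 at 0 h, just outside the floor, whereas the member just inside it was Fcgr3, at 7.26 on the 0 h array. The complement genes C1qa (4.00 at 3 h and 4.18 at 0 h) and C1qb (2.83 at 3 h and 2.84 at 0 h) encode chains of C1q, which starts the classical pathway and tags dying cells for uptake. Mrc1, the mannose receptor gene, had 3.17 at 3 h and 3.31 at 0 h. Cd5l, which encodes a secreted protein of tissue macrophages also called AIM, had 3.61 at 3 h and 3.55 at 0 h. Cd68, an endolysosomal glycoprotein gene widely used as a macrophage stain, had 5.25 at 3 h and 5.23 at 0 h. Across these 6 genes the differences ran from -0.19 to 0.25 with a median of 0.0082, and 3 were above and 3 below 0. RMA shrinks differences between dim signals, so differences at this level may be understated.

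Promoters of members on both sides of the floor were searched for letters of myeloid factors. PU.1, the factor that directs the macrophage lineage, binds a core written GAGGAA, which was searched on both strands of the 250 bases before the start. It was found in 5 of the 7 members read, namely Fcgr3, C1qb, Cd5l, Cd68 and Mrc1, and in 23.3% of 32851 promoters in the table. The C/EBP half-site GCAAT was found in Lyz1 alone of the 7 (23.1% of all promoters) and the TATA box TATAAA in none (12.4%). Fcgr3, higher at 3 h, and Mrc1, below the floor, are printed to show both sides, with the PU.1 core or its reverse complement in capitals. In Fcgr3, shown for 1 of its 2 overlapping windows, the core lay on the opposite strand, 15 to 10 bases before the start, and Mrc1 held 3 copies on the opposite strand. A match in these letters is a description and not a site of binding.
Fcgr3, chr1:171059395-171059644, minus strand: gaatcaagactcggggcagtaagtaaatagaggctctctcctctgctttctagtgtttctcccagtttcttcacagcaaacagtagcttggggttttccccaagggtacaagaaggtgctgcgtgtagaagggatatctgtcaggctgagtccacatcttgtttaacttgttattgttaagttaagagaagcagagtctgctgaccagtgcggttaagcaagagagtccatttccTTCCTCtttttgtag
Mrc1, chr2:14229164-14229413, plus strand: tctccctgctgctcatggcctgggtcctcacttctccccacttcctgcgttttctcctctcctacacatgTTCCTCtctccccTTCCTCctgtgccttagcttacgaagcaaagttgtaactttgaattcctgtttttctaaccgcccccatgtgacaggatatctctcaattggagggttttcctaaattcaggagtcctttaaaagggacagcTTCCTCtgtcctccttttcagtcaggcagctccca

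Most other tissue macrophage markers were below the floor as well, beside 8590 of all 17874 genes. Of 24 measured, 18 were below the floor on both arrays, among them C1qc (4.13 at 3 h and 3.96 at 0 h), the third chain of C1q, the haptoglobin-haemoglobin scavenger gene Cd163 (2.44 at 3 h and 2.50 at 0 h), the phosphatidylserine receptor gene Timd4 (2.94 at 3 h and 3.21 at 0 h) and Vsig4 (2.96 at 3 h and 3.09 at 0 h), a complement receptor of resident macrophages. Signals of the 18 were not all flat. The largest increases were in Fcgr1 (5.54 at 3 h and 4.30 at 0 h) and Mpeg1 (5.68 at 3 h, just under the floor, and 4.81 at 0 h). Sirpa followed (5.09 at 3 h and 4.46 at 0 h). Others of the 18 were lower, Cx3cr1 by the most (4.32 at 3 h and 4.67 at 0 h). The other 6 of the 24 were above the floor on both, 3 higher and 3 lower at 3 h, and none of them was 1.5-fold higher. Of these, Tyrobp (0.57), Ctss (0.55) and Fcer1g (0.55), which encode a signalling adaptor, a lysosomal protease and the Fc receptor gamma chain of many myeloid cells, were higher at 3 h by less than 1.5-fold. Vcam1, the adhesion gene by which island macrophages hold erythroblasts, was lower at 3 h (8.25, against 9.22 at 0 h), and Apoe (-0.10) and Slc40a1 (-0.24), the iron exporter gene, differed little. Vcam1, Apoe and Slc40a1 are also expressed outside macrophages. The median difference was 0.03 over all 24 and 0.23 over the 6, and the summed signal on the linear scale was 5880 at 3 h and 6160 at 0 h. Most of that sum is Apoe (11.84 at 3 h and 11.93 at 0 h), so the sum does not show the direction of the dimmer markers.

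Genes that act with the Fc and CSF1 receptors were mixed. Of 18 genes of Fc receptors and their ITAM signalling, 11 were above the floor on both arrays, where 51.9% of all genes reached it on at least 1, 2 of them higher by 1.5-fold or more and none lower by as much, with a median of 0.51 (0.36 over all 18). The inhibitory receptor gene Fcgr2b (0.92), a close relative of Fcgr3 with which its probe set may share signal, and Clec7a (0.67), the receptor for fungal beta-glucan, differed most, and Fcgr1 was below the floor (5.54 at 3 h and 4.30 at 0 h). Among 18 ligands of the CSF1 receptor and macrophage transcription factors, 11 were above the floor on both arrays, with 2 at least 1.5-fold higher and 1 lower by as much, and the median was 0.10 over all 18. The ligand gene Csf1 was higher (7.71 at 3 h, against 6.54 at 0 h), as was Tfec (1.40), a factor of the MITF family that was below the floor at 0 h. Egr2 (-1.13) was lower, as was the oxysterol receptor gene Nr1h3 (-0.67), which was below the floor at 3 h and so had to be lower. Spi1, which encodes PU.1, had 7.44 at 3 h and 7.04 at 0 h. Il34 (4.28 at 3 h and 4.10 at 0 h), Maf (4.05 at 3 h and 4.26 at 0 h) and Spic (3.36 at 3 h and 3.38 at 0 h), a factor of iron-recycling macrophages, were below the floor.

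Medians of complement, uptake and lysosome genes were near or below 0. Of 12 complement genes 5 were above the floor on both arrays, all 5 lower at 3 h by less than 1.5-fold, and the median over all 12 was -0.13. The anaphylatoxin receptor gene C3ar1 was higher (5.85 at 3 h, against 3.94 at 0 h, below the floor), Masp1 (-0.92) was below the floor at 3 h only, and Cd55 (-0.57) and Serping1 (-0.37) were lower, and liver cells also express complement genes. Among 22 scavenger, lectin and efferocytosis genes, 14 were below the floor on both arrays, the median over all 22 was -0.06, and of the other 8 Cd36 alone was at least 1.5-fold higher (6.41 at 3 h, against 4.96 at 0 h, below the floor). The 17 genes of erythroblastic islands and iron recycling had 14 above the floor on both arrays and a median over all 17 of -0.02. There Slc11a1 (1.34), a phagosomal metal transporter gene below the floor at 0 h, and the integrin gene Itgav (0.86) were higher, while Icam4 (-0.81), the erythroblast ligand of that integrin, was lower beside Vcam1. Of 20 lysosome genes 18 were above the floor, none differed by 1.5-fold, and the median was 0.01.

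Most activation genes of macrophages were below the floor, beside 8590 of all 17874 genes. Of 21, 13 were below it on both arrays, 5 reached it at 3 h only and 3 were above it on both, and the median over all 21 was 0.28. The 3 above it on both arrays were the chemokine genes Ccl3 (1.48) and Cxcl10 (11.96 at 3 h and 11.36 at 0 h) and the receptor gene Tlr2 (0.28), which senses bacterial lipopeptides. Ccl3 had 7.20 at 3 h and 5.72 at 0 h, only just above the floor. The 5 that reached it at 3 h only, and so had to be higher there, included the chemokine gene Ccl2 (2.15), the prostaglandin synthase gene Ptgs2 (2.09) and Il1rn (1.19), which encodes an interleukin 1 antagonist. Other cell types express these genes as well.

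Markers of granulocytes and monocytes were mostly higher at 3 h. Of 20 granulocyte markers 8 were above the floor on both arrays, all 8 higher at 3 h and 2 of them (S100a8 and S100a9) at least 2-fold. A further 4, Camp, Lcn2, Ngp and Prg2, reached it at 3 h only and so had to be higher, and 8 were below it on both, among them Csf3r (4.32 at 3 h and 4.84 at 0 h). The median over all 20 was 0.73. S100a9, one of the calprotectin genes, had 11.67 at 3 h and 9.72 at 0 h, and Mpo, the myeloperoxidase gene, had 12.15 at 3 h and 11.70 at 0 h. The summed signal of the 20 on the linear scale was 13212 at 3 h and 6934 at 0 h, and most of the increase in that sum came from S100a8 and S100a9. Of 21 monocyte and shared myeloid markers 15 were above the floor on both arrays, with 13 higher and 2 lower, 7 at least 1.5-fold higher and a median over all 21 of 0.37. Ncf4 (1.09) and Itgb2 (0.86), which encode an oxidase subunit and the beta chain of leukocyte integrins, differed most. Among the antigens used for removal, Ptprc, which encodes CD45, had 7.99 at 3 h and 7.30 at 0 h, and Cd14 had 8.51 at 3 h and 7.88 at 0 h. Itga2b, which encodes CD41, was above the floor without being higher at 3 h (7.05 at 3 h and 7.14 at 0 h). Itgam, which encodes CD11b, was below the floor (3.52 at 3 h and 3.45 at 0 h). Transcript levels in the bulk sample cannot tell more myeloid cells from more RNA per cell, and the part of granulocytes and monocytes in the increase of Lyz1, Lyz2, Csf1r and Fcgr3 was not tested.

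**Figure D3:**
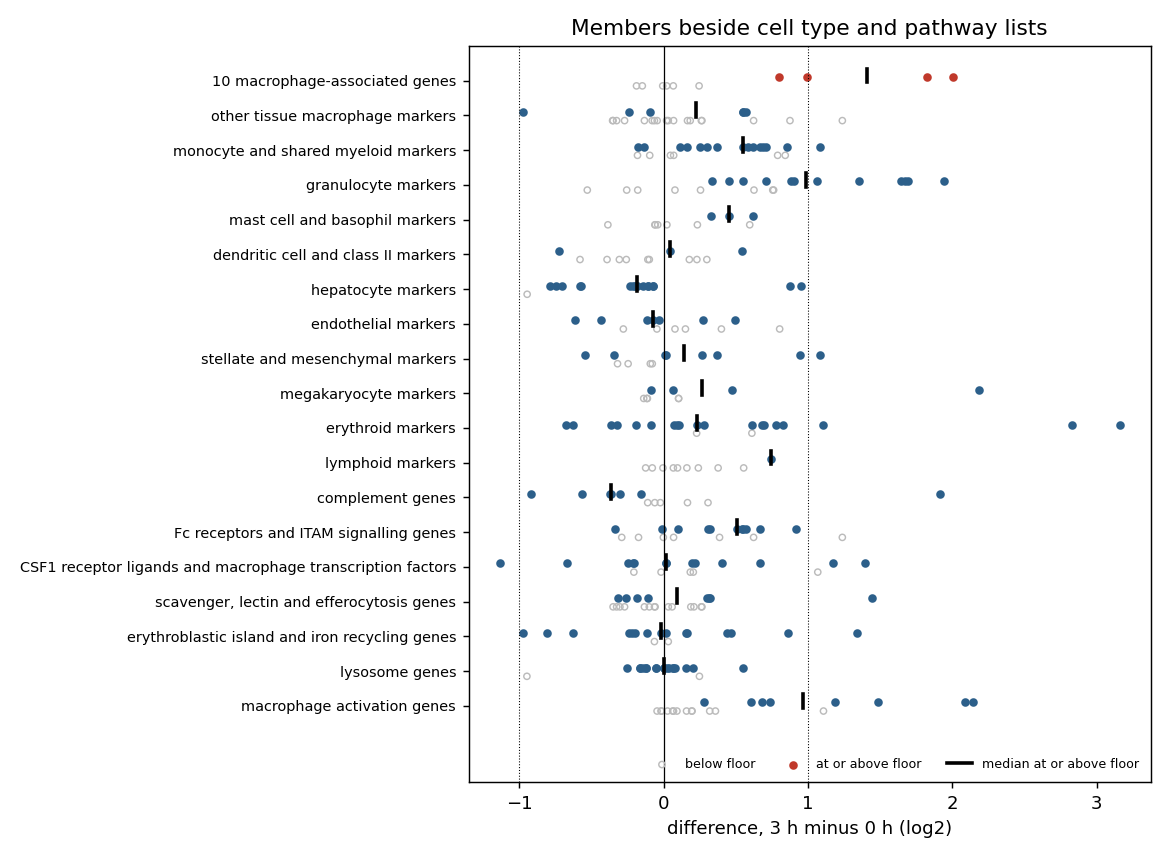
Difference (3 h minus 0 h, log2) of the 10 macrophage-associated genes (top line, red) and of each gene of 18 lists (blue), with open circles for genes that missed the floor on both arrays and a black bar for the median of the others. Dotted lines mark 2-fold. The 4 measured members lie between 0.80 and 2.00, the 8 granulocyte markers above the floor on both arrays lie right of 0, and the lysosome genes above the floor lie within 1.5-fold of 0.

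Markers of other cells went both ways. Of 18 hepatocyte markers 17 were above the floor on both arrays, 15 of them lower at 3 h and 2 higher, with a median over all 18 of -0.19. Apob (-0.79) differed most among the lower, and the higher ones were the keratin genes Krt8 (0.95) and Krt18 (0.88). Hepatocyte signals were strong. Afp had 14.53 at 3 h and 14.60 at 0 h, and Alb had 13.96 at 3 h and 14.15 at 0 h. The highest value on each array was 14.7, and the brightest erythroid marker listed, Klf1, had 12.31 at 3 h and 12.03 at 0 h. The share of hepatocyte RNA in the samples was not tested. Of 21 erythroid markers 17 were above the floor on both arrays, 12 higher and 5 lower, with a median over all 21 of 0.23. The globin gene Hbb-bh1 (3.16) and the band 3 gene Slc4a1 (2.83), which was below the floor at 0 h, differed by more than any of the 10 macrophage-associated genes. Both were measured by probe sets of a kind that can match several genes. Without such probe sets 1 erythroid marker was at least 2-fold higher, in place of 3 that reached the floor on either array. Above the floor on both arrays were 3 of 10 mast cell and basophil markers, 3 of 12 dendritic cell and class II markers, 6 of 13 endothelial markers, 7 of 12 stellate and mesenchymal markers, 1 of 9 megakaryocyte markers and 0 of 10 lymphoid markers. Over all measured genes of these lists the medians were 0.13 for mast cells and basophils, -0.10 for dendritic cells, -0.03 for endothelium, -0.03 for stellate cells, 0.07 for megakaryocytes and 0.13 for lymphoid cells. The platelet receptor gene Gp1bb (6.68 at 3 h, against 4.49 at 0 h, below the floor) and the actin gene Acta2 (10.65 at 3 h, against 9.57 at 0 h) differed most among the named genes of these lists. Of 35 genes of other organs 4 were above the floor, with a median over all 35 of 0.00056.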

How the data were processed

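Expression was measured on 2 arrays, 1 per time. Biotin-labelled cRNA came from 1.5 µg of total RNA, per the labels' protocols. The authors deposited log2 values from RMA, run with the affy package per the submitters' processing notes. RMA corrects background, quantile-normalizes and summarizes the probes of a set. Versions, and which arrays were normalized together, are not stated in the sources used here. RMA equalizes the arrays, so a shift of all transcripts could not be seen. The number of arrays limits the precision.

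Values were used as deposited. Of 20666 probe sets, 17918 had 1 gene in the platform table and were averaged per symbol; 17767 were matched by Entrez ID to RefSeq genes of GRCm38.p6, which changed 0 symbols. Differences are 3 h minus 0 h, with no test. The members and the lists (11 of cell type markers, 7 of pathway genes, 1 of genes of other organs) were chosen with earlier results of these data known, and lists share genes. Named were all members and, per list, up to 4 genes with the largest difference and 2 with the highest level at or above the floor. Genes below the floor, Cd14, Itgam, Spi1, Tlr2, Ngp and Prg2 were named after their values were seen. Alternatives were quantile normalization, removal of an intensity trend (loess, span 0.3), the brightest probe set, probe sets without multi-match suffixes, no floor and a stricter floor of 6.50, the 95th percentile over 35 genes typical of other organs. The 2-fold calls, quantile normalization and trend removal were tested on simulated data, and the other steps were not. All steps used numpy 2.4.6, pandas 2.3.3, matplotlib 3.10.9 and statsmodels 0.14.6 under Python 3.11.15.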

Additional observations from a re-analysis of the deposited data

How the results depend on the processing

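No paired analysis was possible because each time has 1 array, and for the same reason no replicate could be left out. Lyz1, Lyz2, Csf1r and Fcgr3 stayed higher at 3 h under quantile normalization, removal of an intensity trend, the brightest probe set and, except Lyz1, probe sets without multi-match suffixes. Lyz2 then ran from 1.82 to 1.83, Lyz1 from 2.00 to 2.02, Csf1r from 0.996 to 0.999 and Fcgr3 from 0.77 to 0.80. Without multi-match suffixes, Lyz1, Adgre1 and C1qb were not measured, 1 member was at least 2-fold higher in place of 2, and the median of members above the floor was 0.997 in place of 1.41. With no floor all 10 members counted and that median was 0.16. The mean of all 10 was 0.56, where their median was 0.16. With the floor at 6.50 the same 4 genes were above it on both arrays. The median of tissue macrophage markers was 0.55 without multi-match suffixes, where it was 0.23 over the 6 genes above the floor. In that setting, and with no floor, 1 of these markers was at least 2-fold higher, in place of 0. The medians of macrophage activation, mast cell, dendritic cell, megakaryocyte and lymphoid lists depended on the floor or on suffixes. Over genes that reached the floor on either array they were 0.96, 0.45, 0.04, 0.27 and 0.74, against 0.28, 0.13, -0.10, 0.07 and 0.13 over all measured genes. With the floor at 6.50 the macrophage activation median was 1.48 and the megakaryocyte median 1.05. The stellate median (0.14, against -0.03) did not move by over 0.31 in any setting. Without multi-match suffixes the dendritic cell median was -0.34. Values were taken to differ where they moved by over 0.31, the spread over genes, since no replicate error exists. Signals below the floor cannot show small differences.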
